A study of Mus musculus with 2 samples.

Results

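The genes Ltf, Lcn2, Defb1, Slpi, Wfdc2, Wfdc18, Pigr, Fcgbp and Muc15, which encode antimicrobial and barrier proteins of secretory epithelium, were followed as a set of 9 of the 32285 genes in the count matrices. They were taken by name, and their UMIs (unique molecular identifiers, which count captured transcripts rather than amplified copies) were summed over retained cells by cell class and by library and are given as CPM, counts scaled to 1000000 UMIs of the class. Single cell RNA sequencing had been carried out on mammary glands of wild-type female mice labelled 9 to 10 weeks old. The library labelled Ctrl came from control mice, for which no agent is named. The library labelled CL came from mice given clodronate liposomes, lipid vesicles whose drug kills the phagocytes that take them up. Sorting kept CD45+ immune cells and cells lacking CD31 and TER119, and neither the mixing ratio of these fractions nor the number of mice per library was given. Each group is a single library, so differences between them could not be tested against replicate error, and all intervals are exact 95% intervals that cover counting error only.

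Lactoferrin (Ltf) withholds iron from microbes, lipocalin 2 (Lcn2) binds the siderophores with which bacteria collect iron, and beta-defensin 1 (Defb1) is a peptide that damages microbial membranes. Slpi, Wfdc2 and Wfdc18 belong to the whey acidic protein domain family, whose best known member, Slpi, inhibits leukocyte proteases. The polymeric immunoglobulin receptor (Pigr) carries dimeric IgA and pentameric IgM across epithelium, Fcgbp is a mucus protein that binds IgG Fc, and Muc15 is a membrane mucin of milk fat globules.

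The library labelled Ctrl held 118743318 UMIs and the library labelled CL 155765480, and 5880 and 8796 cells were retained, with medians of 11280 and 10320 UMIs. Cells were named from markers other than the 9 genes as secretory-lineage-like luminal (Elf5, Kit, Csn3), hormone-responsive-like luminal (Prlr, Esr1, Pgr), basal-like (Krt5, Krt14, Acta2) and 4 stromal or immune classes. The secretory-lineage-like class held 2620 cells in Ctrl and 3908 in CL, the hormone-responsive-like class 2240 and 3074, and the basal-like class 407 (6.92%) and 442 (5.03%). Macrophage-like cells numbered 59 in Ctrl and 269 in CL, 1.00% (0.765 to 1.29) and 3.06% (2.71 to 3.44) of retained cells, whereas the label CL names their depletion. Within them, the C1qa-high cluster was lower in CL, though the intervals overlap, with 40 cells (0.680%, 0.486 to 0.925) in Ctrl and 42 (0.477%, 0.344 to 0.645) in CL. The higher share of the class lay in a Lyz2-high, Chil3-high cluster of 19 cells (0.323%) in Ctrl and 227 (2.58%) in CL. Whether the labels of the libraries are exchanged was not tested, and each direction given here as CL over Ctrl rests on them. The paper on these data reports lower shares of macrophages and basal cells after clodronate. It also reports the near loss of Sca1-low luminal cells and a rise of Sca1-high, hormone-responding ones (Sca1 is encoded by Ly6a). Here the basal-like share was lower in CL. The hormone-responsive-like class, whose markers include Ly6a, was also lower in share, at 38.1% in Ctrl and 34.9% in CL. Within this class a cluster held 802 cells in Ctrl and 55 in CL, and it was not matched to the Sca1-low subset. The macrophage-like share was higher through the Lyz2-high, Chil3-high cluster, while the C1qa-high share was lower with overlapping intervals. In naming these clusters, 4 macrophage markers counted for the Lyz2-high one and 8 for the C1qa-high one. Droplets of 100 to 300 UMIs (54275 in Ctrl and 55973 in CL), taken as a measure of free RNA, held 6048 CPM of the 9 genes together in Ctrl and 8456 CPM in CL. With droplets of 50 to 100 UMIs (2397 and 2626) in their place, levels relative to droplets moved, but only 3 of 119 changed side, Defb1 in hormone-responsive-like cells of Ctrl (1.25 to 0.849 times) and Wfdc18 and Muc15 in endothelial-like cells of CL. T and NK-like cells, which should lack these epithelial genes, held 576 and 876 CPM, 9.52% and 10.4% of the droplet level. The candidate cells of the libraries shared 22 barcodes.

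The 9 genes fell into 3 sites of expression. Ltf, Lcn2, Wfdc18, Pigr, Fcgbp and Muc15 were carried by the secretory-lineage-like cells, which held 88.5% (Muc15) to 90.3% (Pigr) of each gene's UMIs in Ctrl and 83.1% (Ltf) to 84.9% (Muc15) in CL. Wfdc2 and Defb1 were carried by the hormone-responsive-like cells, which held 97.5% of Wfdc2 UMIs in Ctrl and 97.1% in CL, and 98.1% and 95.6% of Defb1 UMIs. Slpi lay mostly in basal-like cells, with 71.5% of its UMIs in Ctrl and 58.2% in CL. These shares depend on how many cells of each class were sorted. The CPM within a class are scaled to its own UMIs, but they include free RNA and follow the makeup of its clusters.

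**Figure D1:**
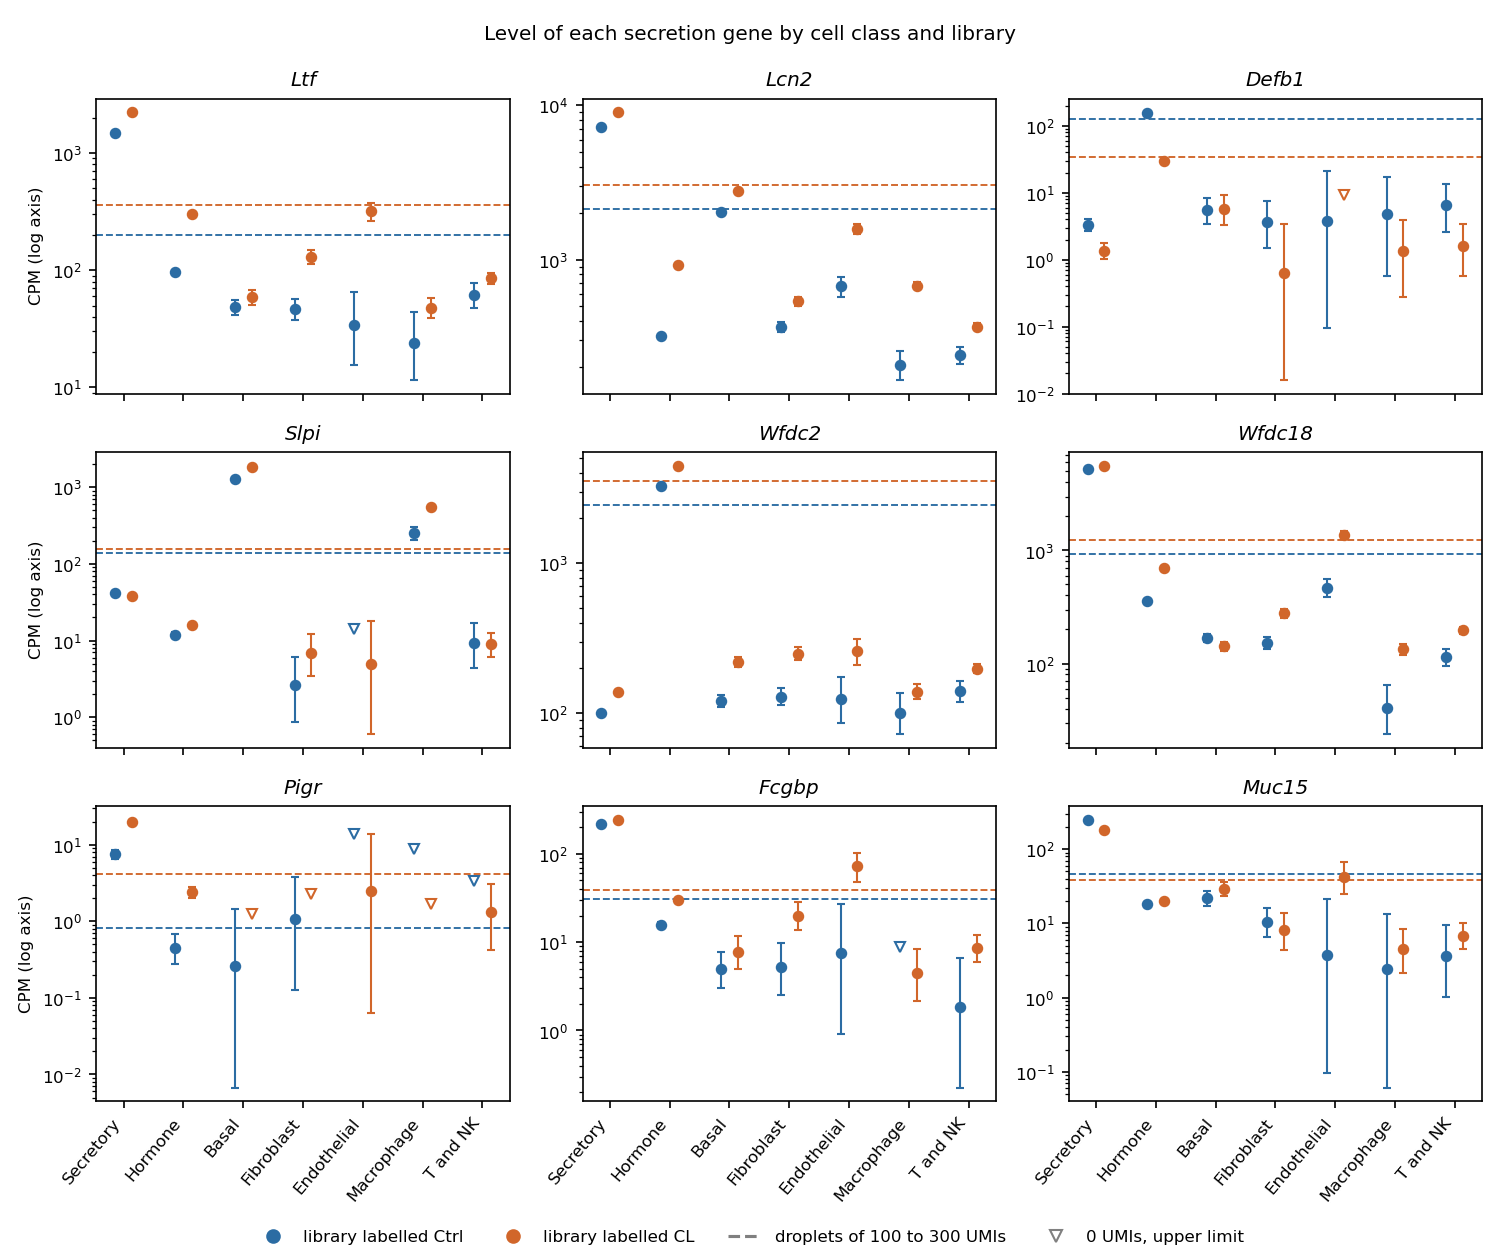
CPM of each gene (vertical, log axis) in 7 cell classes (horizontal) of the libraries labelled Ctrl and CL, with exact 95% Poisson intervals, open triangles at the upper limit where no UMI was counted and dashed lines at the level in droplets of 100 to 300 UMIs. Ltf, Wfdc18 and Fcgbp lie above the droplet lines in secretory-lineage-like cells, and Slpi lies above them only in basal-like and macrophage-like cells.

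In the annotation on GRCm38, the same assembly as the mm10 build named in the submitters' processing notes, all 9 genes were found and all are protein coding. Lcn2 (chr2:32384633-32388252), Slpi (chr2:164354070-164389095), Wfdc2 (chr2:164562413-164568510) and Muc15 (chr2:110721340-110739527) are on chromosome 2, Lcn2 and Slpi on the minus strand. Ltf (chr9:111019271-111042767), Defb1 (chr8:21776599-21795185), Wfdc18 (chr11:83709015-83711348), Pigr (chr1:130826684-130852249) and Fcgbp (chr7:28071236-28120862) are on the plus strand of 5 other chromosomes. Of Fcgbp's 31-base words, 12.2% also occur in transcripts of other genes, most in 9530053A07Rik, so part of its reads could match that copy too. The share of such words was 1.02% for Pigr, 0.195% for Muc15 and 0 for the other 6 genes. The words were taken over whole transcripts, and where the reads lie along them was not examined, so these shares do not measure shared reads. Muc15 overlaps Ano3, which is transcribed from the opposite strand, and Slpi overlaps the microRNA gene Mir7678 on its own strand.

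Promoters from RefSeq (GRCm38.p6) were matched for 7 of the 9 genes. Those of Ltf, Wfdc18 and Fcgbp, the genes with the most similar pattern over cell clusters, and of Pigr, which differed most between the libraries in secretory-lineage-like cells, are shown 5′ to 3′ on the plus strand, up to the first annotated base of each gene. They span chr9:111019042-111019270, chr11:83708754-83709003, chr1:130826434-130826683 and chr7:28070986-28071235 in the order printed, and none overlaps an annotated gene. Capitals mark the letters TTGCNNAA (a C/EBP motif), AGGAAG (an ETS core) and TATAAA on either strand.
Ltf: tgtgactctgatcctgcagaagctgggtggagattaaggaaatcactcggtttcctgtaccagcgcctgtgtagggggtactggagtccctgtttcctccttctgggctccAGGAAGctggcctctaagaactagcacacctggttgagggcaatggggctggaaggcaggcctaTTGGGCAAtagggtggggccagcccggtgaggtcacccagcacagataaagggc
Wfdc18: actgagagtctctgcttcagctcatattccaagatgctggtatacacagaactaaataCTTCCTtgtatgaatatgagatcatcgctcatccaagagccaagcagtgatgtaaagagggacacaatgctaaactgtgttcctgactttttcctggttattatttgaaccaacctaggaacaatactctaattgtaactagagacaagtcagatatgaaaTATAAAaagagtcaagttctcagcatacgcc
Pigr: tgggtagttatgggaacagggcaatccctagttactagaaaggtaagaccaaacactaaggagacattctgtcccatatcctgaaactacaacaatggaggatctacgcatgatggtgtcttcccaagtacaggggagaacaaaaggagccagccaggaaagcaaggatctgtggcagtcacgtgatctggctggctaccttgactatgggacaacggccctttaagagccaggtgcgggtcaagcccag
Fcgbp: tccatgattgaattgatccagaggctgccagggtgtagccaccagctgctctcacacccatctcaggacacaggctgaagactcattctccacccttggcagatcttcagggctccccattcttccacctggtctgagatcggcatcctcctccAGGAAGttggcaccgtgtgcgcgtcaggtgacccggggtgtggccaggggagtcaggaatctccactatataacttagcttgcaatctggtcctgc
Over the full 250 bases before the RefSeq start, AGGAAG was found in Ltf, Lcn2, Wfdc2, Wfdc18 and Fcgbp, against 29.2% of 27025 promoters. TTGCNNAA was found in Ltf, Lcn2 and Slpi, against 9.55% of promoters, and TATAAA only in Wfdc18, against 13.0%. The motifs TTCNNNGAA (GAS, 7.18% of promoters), GAAA repeated after any 2 bases (ISRE core, 3.04%), TGANTCA (AP-1, 6.87%) and the kappaB consensus (3.75%) were found in none of the 7. None of these 7 motifs was found in the Pigr window, which therefore carries no capitals.

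Over the 21 clusters of at least 50 cells, log2(CPM + 1) of Ltf was most like that of Fcgbp (Pearson r = 0.98), Wfdc18 (r = 0.98) and Snorc (r = 0.97) among 6497 genes. Fcgbp and Wfdc18 were each other's nearest gene (r = 0.99), followed by Ltf and Slc5a7 for Fcgbp and by Snorc and Ltf for Wfdc18, and the 6 genes of the secretory-lineage set correlated with each other at r from 0.84 to 0.99. Wfdc2 was most like Fam25c (r = 0.99), Tspan1 and Wnt4 (both r = 0.99), and its r with Defb1 was 0.90. Defb1 was most like mt-Nd3 (r = 0.94), Hist1h2bc and Srebf1, and Pigr most like Cidea (r = 0.92), Chchd7 and 1500015A07Rik. Muc15 was nearest to Tspan8 (r = 0.98), Snorc and Wfdc18, and Lcn2 to Wnt5b (r = 0.96), 9330188P03Rik and Eif5b. Slpi was most like Asprv1 (r = 0.82), Scx and Nufip1, and its r to any other of the 9 was at most 0.41. Within the 16 clusters of Ctrl alone its nearest gene was Krt17 (r = 0.95), a keratin of basal cells, and within the 19 of CL alone Marcksl1 (r = 0.88). Of the 3 nearest genes named, those of Ltf were the same in either library alone, whereas at most 1 was shared for Slpi, Lcn2, Defb1 and Pigr. The clusters share libraries and free RNA, and most of the spread over them is the difference between classes, so these r are a description.

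In secretory-lineage-like cells the iron-binding proteins were high in both libraries. Ltf stood at 1498 CPM in Ctrl and 2228 CPM in CL, 7.46 and 6.22 times the droplet level. Its log2 ratio of CL over Ctrl was 0.57 (0.56 to 0.59). Lcn2 stood at 7225 and 9017 CPM, 3.37 and 2.98 times the droplet level, with a log2 ratio of 0.32 (0.31 to 0.33). Both were thus higher in CL by less than 1.5-fold. With edgeR TMM factors the log2 ratio of Ltf was 0.62, past 1.5-fold. The log2 ratio of Ltf in the class was above that of each of its 6 clusters, which ran from -0.18 to 0.48, and with the same makeup of clusters in both libraries it was 0.18.

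Ltf divided the secretory-lineage-like cells, whereas Lcn2 was in nearly all of them. With every cell thinned to 5211 UMIs, which left out 230 cells in Ctrl and 391 in CL, 61.4% of cells had a UMI of Ltf in Ctrl and 70.2% in CL. Without thinning these shares were 66.6% and 74.1%. Cells with 10 or more thinned UMIs of Ltf made up 27.3% in Ctrl and 39.1% in CL and held 82.8% and 89.3% of its UMIs. Lcn2 was found in all 2390 thinned cells of Ctrl and all 3517 of CL. At a depth of 1361 UMIs common to all classes, 45.8% and 56.2% of secretory-lineage-like cells had a UMI of Ltf, against 1.94% and 4.54% of T and NK-like cells, the measure of free RNA.

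**Figure D2:**
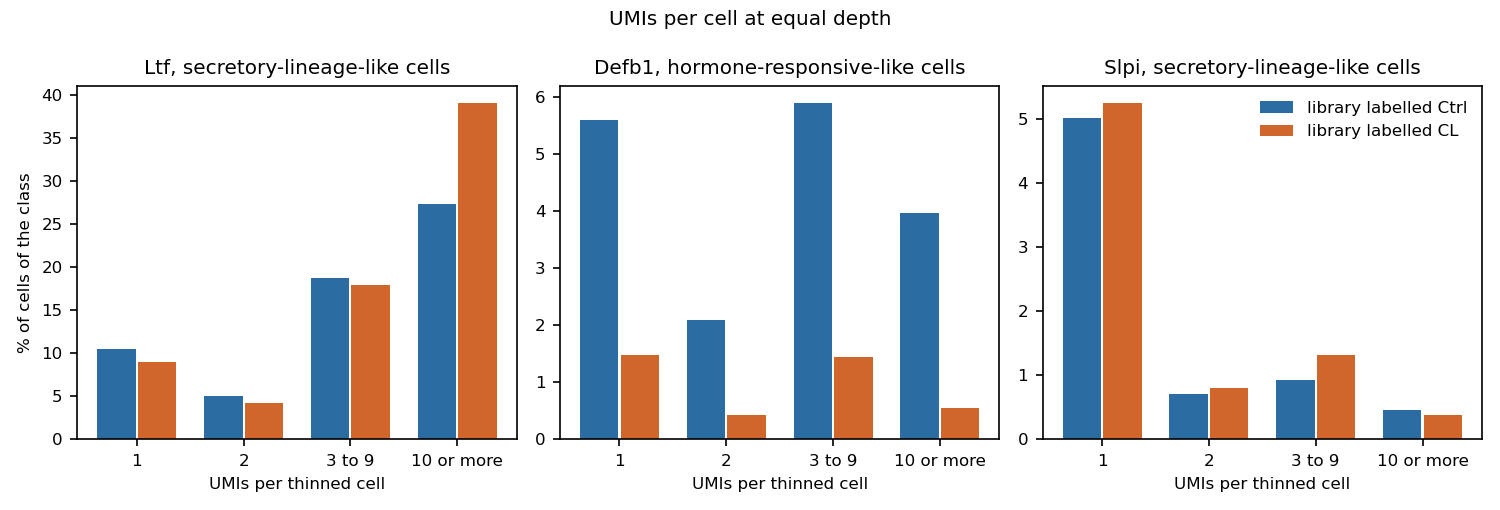
Percent of cells (vertical) with 1, 2, 3 to 9, or 10 or more UMIs (horizontal) of Ltf and Slpi in secretory-lineage-like cells thinned to 5211 UMIs and of Defb1 in hormone-responsive-like cells thinned to 7124 UMIs. The bar of 10 or more UMIs of Ltf is the highest in both libraries, and every Defb1 bar is lower in CL.

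The level of Ltf followed the 6 secretory-lineage-like clusters, which were built without the 9 genes. It was lowest in the Car2, Cck and Csn3-led cluster (577 CPM in Ctrl and 508 CPM in CL) and highest in the Cxcl2 and Csf3-led cluster (2930 and 4095 CPM). The latter held 116 cells in Ctrl and 363 in CL. Wfdc18 had the same extremes, with 2980 and 3223 CPM in the Car2-led cluster and 11781 and 8625 CPM in the Cxcl2-led one. Lcn2 was higher in CL in all 6 clusters, with log2 ratios from 0.15 to 1.02. In the cells rich in Ltf (at least 3 thinned UMIs) compared with cells without it, the milk protein gene Lalba was at 35.9 against 86.9 CPM in Ctrl and 9.81 against 40.0 CPM in CL, and transferrin (Trf), the other iron carrier of milk, at 786 against 1643 and 490 against 1045 CPM. Crip1 went the other way, at 707 against 146 CPM in Ctrl and 666 against 186 CPM in CL.

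**Figure D3:**
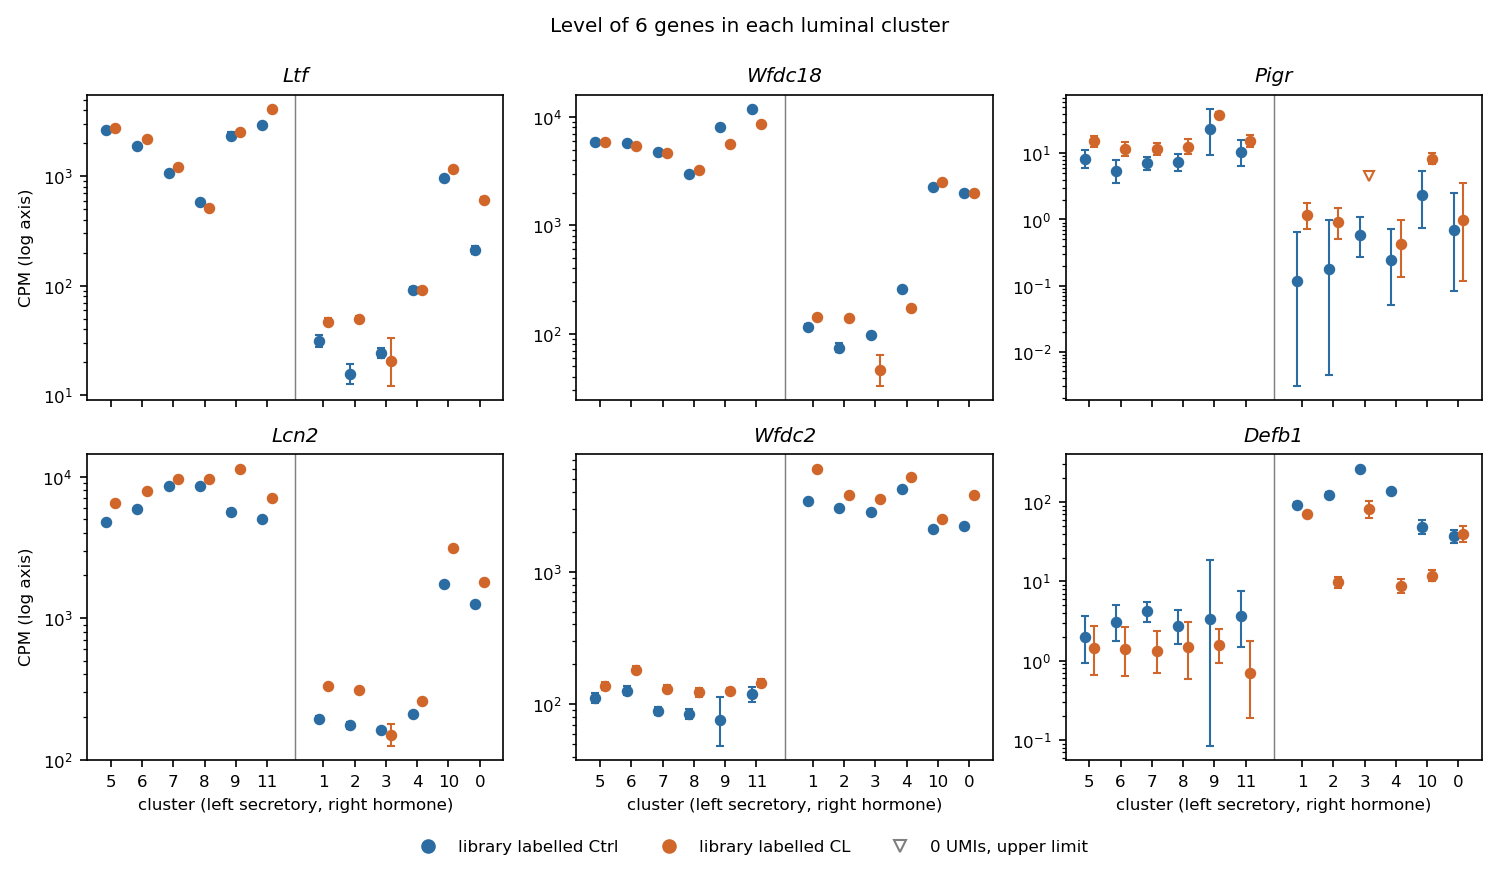
CPM (vertical, log axis) of 6 genes in each luminal cluster (horizontal, by number) of the libraries labelled Ctrl and CL, with exact 95% Poisson intervals, open triangles at the upper limit where no UMI was counted, secretory-lineage-like clusters left of the line (8 is Car2-led, 9 Gbp2-led, 11 Cxcl2-led) and hormone-responsive-like clusters right of it (3 is Aoc1-led, 10 Hp-led, 0 dividing). Clusters 10 and 0 have the highest Ltf, Wfdc18 and Lcn2 on the right of the line, and Defb1 is far lower in CL in clusters 2 and 4.

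Of the barrier genes in these cells, Pigr differed most between the libraries. It had 224 UMIs (7.47 CPM) in Ctrl and 860 UMIs (19.8 CPM) in CL, a log2 ratio of 1.41 (1.19 to 1.63). The droplets differed as well, at 0.816 CPM in Ctrl and 4.14 CPM in CL, below the level in these cells in each library. In CL the level in these cells was 4.79 times that of droplets of 100 to 300 UMIs and 1.79 times that of droplets of 50 to 100 UMIs. Thinned cells with a UMI of Pigr were 3.22% in Ctrl and 8.19% in CL, against 7.02% and 15.8% unthinned. At 1361 UMIs the shares were 1.16% and 2.04%, against 0% and 0.284% of T and NK-like cells. Pigr was highest in the Gbp2-led cluster, whose leading genes are induced by interferon, at 23.2 CPM (7 UMIs) in Ctrl and 38.4 CPM (435 UMIs) in CL. That cluster held 21 cells of Ctrl and 908 of CL, and its summed level of 10 interferon and MHC class II genes was 5765 and 3615 CPM, against 55.3 to 479 CPM in the other secretory-lineage-like clusters. Without it Pigr stood at 7.31 and 13.3 CPM, a log2 ratio of 0.86 (0.62 to 1.10). Pigr was higher in CL in each of the 6 clusters, though within counting error in the Gbp2-led and Cxcl2-led ones. The part of interferon-induced state in the difference was not tested.

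Muc15 was lower in CL, at 244 CPM in Ctrl and 179 CPM in CL, a log2 ratio of -0.44 (-0.49 to -0.40). All 6 clusters had a log2 ratio below 0, the Car2-led one within counting error (-0.12, -0.28 to 0.03). Fcgbp stood at 216 and 239 CPM (log2 ratio 0.15, 0.10 to 0.19), and its clusters differed in direction, from -1.47 in the Gbp2-led cluster to 0.54. Wfdc18 was nearly level, at 5230 CPM in Ctrl and 5582 CPM in CL (log2 ratio 0.094, 0.085 to 0.10). Wfdc2, Slpi and Defb1 lay below the droplet level in these cells in both libraries. Wfdc2 stood at 100 and 139 CPM, and at 1361 UMIs 13.8% and 18.3% of cells had a UMI of it, under the 21.8% and 27.1% of T and NK-like cells, so its UMIs here read as background.

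By a rule of at least 1.5-fold with an interval that excludes no difference, among genes with at least 50 UMIs, 1 of the 9 genes was higher in CL in secretory-lineage-like cells (Pigr), against 2.09% of the 12337 genes tested. Another 1 was lower (Defb1, 99 and 59 UMIs, at the background level), against 3.49%. All 9 genes had enough UMIs. The median log2 ratio of the 9 was 0.15, and that of all genes tested was -0.03. With a minimum of 200 UMIs, 1 of 8 was higher (Pigr), against 1.55% of genes, and none lower, against 1.58%.

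In hormone-responsive-like cells Wfdc2 was the main product of the set. It stood at 3250 CPM in Ctrl and 4439 CPM in CL, 1.34 and 1.25 times the droplet level, with a log2 ratio of 0.45 (0.44 to 0.46). A UMI of it was found in 98.8% and 99.7% of cells thinned to 7124 UMIs. Its log2 ratio was above 0 in all 6 hormone-responsive-like clusters, from 0.25 to 0.81.

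Defb1 showed the largest fall among the 9 genes. It stood at 157 CPM in Ctrl (7358 UMIs) and 30.1 CPM in CL (1869 UMIs), a log2 ratio of -2.39 (-2.46 to -2.31), or 5.23-fold lower in CL. The droplets moved the same way, from 126 to 34.3 CPM. Its UMIs were uneven over cells, and the 10% of thinned cells with most of them held 91.4% in Ctrl. In CL fewer than 10% of thinned cells had a UMI, which fixes this measure at 100%. Thinned cells with a UMI were 17.6% in Ctrl and 3.88% in CL, against 22.6% and 6.38% unthinned. Cells with 3 or more thinned UMIs numbered 199 of 2016 in Ctrl and 55 of 2783 in CL. At 1361 UMIs, 8.92% and 1.90% of these cells had a UMI of Defb1, against 0.485% and 0.142% of T and NK-like cells.

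The fall of Defb1 differed among clusters. In the Fxyd2, Crym and Tph1-led cluster 4, which held 558 cells in Ctrl and 640 in CL, Defb1 stood at 137 and 8.76 CPM, a log2 ratio of -3.96 (-4.26 to -3.68). In cluster 2 it stood at 124 and 9.75 CPM (log2 ratio -3.67), while in cluster 1, which shares its leading genes Fgb and Upk3a, it stood at 93.0 and 71.9 CPM (log2 ratio -0.37, -0.50 to -0.24). The Aoc1-led cluster 3 had the highest level, 259 CPM in Ctrl and 81.6 CPM in CL, and held 802 cells of Ctrl (13.6% of retained cells) but 55 of CL (0.625%). Defb1 is among the leading genes of that cluster although it was kept out of the clustering. Without it the log2 ratio of Defb1 was -1.87 (-1.95 to -1.79). In the dividing cluster 0 the levels did not differ beyond counting error (37.0 and 39.9 CPM).

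Cells rich in Defb1 were also higher in Reg3g, a secreted lectin that binds bacteria. Hormone-responsive-like cells with at least 3 thinned UMIs of Defb1 held 83.0 CPM of Reg3g in Ctrl against 17.1 CPM in cells without Defb1, and 62.9 against 21.9 CPM in CL. The alarmin Il33 was lower in the same cells, at 8.02 against 51.9 CPM in Ctrl and 1.46 against 17.2 CPM in CL. Over the whole class Reg3g stood at 24.8 CPM in Ctrl and 23.1 CPM in CL (log2 ratio -0.11, -0.22 to 0.01), so it did not fall with Defb1.

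Products of the secretory-lineage set were counted at higher CPM in the hormone-responsive-like cells of CL than in those of Ctrl. Ltf stood at 96.4 CPM in Ctrl and 300 CPM in CL (log2 ratio 1.64, 1.59 to 1.68), Lcn2 at 321 and 922 CPM (log2 ratio 1.52) and Wfdc18 at 355 and 693 CPM (log2 ratio 0.97, 0.94 to 0.99). Fcgbp stood at 15.8 and 29.7 CPM (log2 ratio 0.91, 0.79 to 1.04), and Pigr had 21 and 149 UMIs (log2 ratio 2.42, 1.75 to 3.15). With doublets kept, the log2 ratio was 1.06 for Ltf, 0.86 for Lcn2 and 0.55 for Wfdc18, the last below 1.5-fold, and with free RNA subtracted it was 2.38 for Lcn2. Over the class all of them lay below the droplet level in both libraries, at 0.150 to 0.837 times that level. With cells thinned to 1361 UMIs, 19.3% and 32.6% had a UMI of Lcn2, against 20.9% and 27.1% of T and NK-like cells, so the share of Ctrl reads as background. For Ltf the shares were 5.25% and 12.2%, against 1.94% and 4.54%.

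The higher level lay largely in the Hp, Muc16 and Krt6a-led cluster 10, which held 83 cells in Ctrl (3.71% of the class) and 459 in CL (14.9%). Ltf stood there at 958 and 1153 CPM, Lcn2 at 1736 and 3104 CPM, Wfdc18 at 2268 and 2526 CPM and Fcgbp at 138 and 103 CPM. The summed level of the 9 secretory-lineage markers in this cluster was 2796 CPM in Ctrl against 2600 in CL, and 125 to 346 CPM in clusters 1 to 4. Its cells had medians of 27300 and 25807 UMIs, and its median doublet score was 0.165 and 0.152, under the threshold of 0.197 but above the 0.0335 to 0.0832 of the other hormone-responsive-like clusters. Without cluster 10 and the dividing cluster 0, which has the next highest level of secretory-lineage markers, the log2 ratio was 0.42 for Ltf, 0.72 for Lcn2, 0.030 for Wfdc18, -0.083 for Fcgbp and 1.37 for Pigr (14 and 41 UMIs). That of Defb1 was then -2.31 and that of Wfdc2 0.56. The part of doublets in cluster 10 was not tested.

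By the 1.5-fold rule, 5 of the 9 genes were higher in CL in hormone-responsive-like cells (Ltf, Lcn2, Wfdc18, Pigr and Fcgbp), against 4.05% of 13492 genes tested, and 1 was lower (Defb1), against 4.22%. All 9 had enough UMIs. The median log2 ratio of the 9 was 0.91, and that of all genes -0.02. Without clusters 0 and 10 the count was 2 higher (Lcn2 and Pigr), against 2.77% of genes, and 1 lower (Defb1), against 3.56%, and the median was 0.030, and with doublets kept the count was 4 higher, without Wfdc18, and the median 0.55. Slpi (11.8 and 15.9 CPM) and Muc15 (18.0 and 19.8 CPM) did not reach 1.5-fold and lay below the droplets. With a minimum of 200 UMIs, 4 of 8 were higher, against 2.66% of genes, and 1 lower, against 2.88%.

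**Figure D4:**
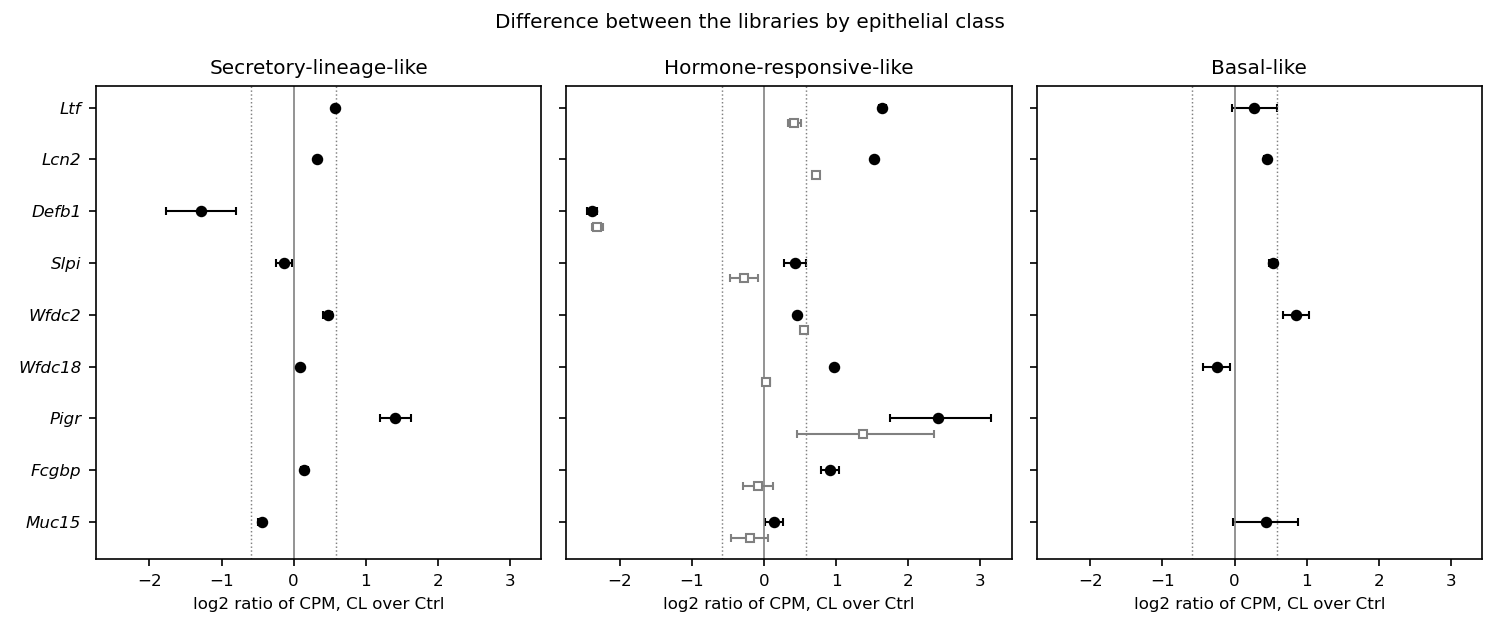
Log2 ratio of CPM, CL over Ctrl (horizontal), of each gene (vertical) in 3 epithelial classes, with exact 95% intervals, dotted lines at 1.5-fold, genes under 50 UMIs left out and open squares for hormone-responsive-like cells without clusters 0 and 10. The squares of Ltf, Lcn2, Wfdc18 and Fcgbp lie far left of the filled points, and those of Defb1 and Wfdc2 close to them.

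In basal-like cells Slpi lay above the droplet level and Lcn2 close to it. It stood at 1274 CPM in Ctrl and 1849 CPM in CL, 9.09 and 11.9 times the droplet level, a log2 ratio of 0.54 (0.48 to 0.59), just under 1.5-fold. With a mitochondrial limit of 5% it was 0.97 and past 1.5-fold, and when CPM were averaged over cells it was 0.33. Lcn2 stood at 2027 and 2776 CPM (log2 ratio 0.45, 0.41 to 0.50), 0.947 and 0.916 times the droplet level. Its level in basal-like cells was far above the 239 and 368 CPM of T and NK-like cells, and at 1361 UMIs 84.4% and 92.1% of basal-like cells had a UMI of it, against 20.9% and 27.1% of T and NK-like cells. Of the 9 genes 6 had enough UMIs, and 1 was higher by the 1.5-fold rule, against 2.19% of 8362 genes tested. This was Wfdc2 (122 and 219 CPM), which lay at 0.0501 and 0.0618 times the droplet level. None of the 6 was lower, against 4.62% of genes. The median log2 ratio of the 6 was 0.44, and that of all genes -0.080. With a minimum of 200 UMIs, 1 of 5 was higher, against 1.57% of genes, and none lower, against 1.79%. Interferon and MHC class II genes moved with the library in these cells too, from 145 to 2023 CPM summed over 10 genes, and their part in the Slpi difference was not tested.

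Outside the epithelium Slpi was made by a myeloid cluster. The Lyz2-high, Chil3-high macrophage-like cluster held 1116 CPM of Slpi in Ctrl (103 UMIs in 19 cells) and 721 CPM in CL (1233 UMIs in 227 cells). The C1qa-high cluster held 9.23 and 8.00 CPM, from 3 and 4 UMIs. Over the macrophage-like class the level therefore went from 254 to 560 CPM while it was lower in CL within the cluster that carried it. Its class held 1.57% of all Slpi UMIs in Ctrl and 13.2% in CL. In secretory-lineage-like cells Slpi was a gene of rare cells. Only 0.460% and 0.370% of thinned cells had 10 or more UMIs, but these held 44.6% and 38.8% of the thinned Slpi UMIs, with up to 44 UMIs in a cell of Ctrl and 70 in a cell of CL. The basal keratin Krt17 was higher in cells with at least 3 thinned UMIs of Slpi than in cells without it. It stood at 188 against 92.1 CPM in Ctrl and 156 against 77.2 CPM in CL, and the part of basal cells was not tested.

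Other antimicrobial and mucosal genes were taken from lists. Of 16 further antimicrobial genes, 5 could be compared in secretory-lineage-like cells, of which 2 were higher in CL, against 2.09% of all genes in this class (S100a8, 7.40 and 12.8 CPM, and S100a9, 2 and 52 UMIs) and none lower. Both encode subunits of calprotectin, which binds zinc and manganese, and both were higher in the droplets of CL too, S100a8 at 3.90 and 34.7 CPM. In hormone-responsive-like cells 4 of 8 were higher (S100a8, S100a9, Pglyrp1 and Chil1), against 4.05% of all genes, and none lower, against 4.22%. Without clusters 0 and 10, 3 of 7 were higher (S100a8, Pglyrp1 and Ang), against 2.77% of genes. Of 12 mucin and mucosal genes, 6 of 7 compared in these cells were higher in CL, against 4.05% of all genes, among them the membrane mucins Muc16 (44.9 and 69.4 CPM), Muc1 (7.82 and 11.9 CPM) and Muc4 (0.962 and 2.91 CPM) and the chloride channel regulator Clca1 (3.27 and 9.22 CPM). Muc16 is a leading gene of clusters 4 and 10, and without clusters 0 and 10 the count was 3 of 6 (Muc4, Agr2 and Clca1). In secretory-lineage-like cells 1 of 5 was higher (Muc16), against 2.09% of all genes, and none lower, against 3.49%.

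Genes that sense microbes or drive these products were compared by the same rule, which called 2.09% of all genes higher and 3.49% lower in secretory-lineage-like cells, and 4.05% and 4.22% in hormone-responsive-like cells. Nothing particular to these lists is read from their counts. Among 8 pattern receptors, Tlr3 was higher in secretory-lineage-like cells of CL (4.17 and 6.27 CPM) and none differed by the rule in hormone-responsive-like cells. None of the 7 cytokine receptors compared differed in either luminal class, Il17ra included (18.1 and 17.9 CPM in secretory-lineage-like cells). Of 10 transcription factors, Spdef was higher in secretory-lineage-like cells (1.53 and 2.31 CPM, below the droplets) and Elf5, a factor of the secretory lineage, was lower in hormone-responsive-like cells (20.1 and 12.5 CPM). Among 10 tight junction genes only Cldn8 was called, higher in secretory-lineage-like cells (1.37 and 2.12 CPM, below the droplets). Of the other whey acidic protein domain genes, 3 of 9 could be compared in secretory-lineage-like cells and none was called. In hormone-responsive-like cells 1 of 2 was higher (Wfdc12, 1.73 and 3.83 CPM, against 2.36 and 3.15 CPM in droplets), and none without clusters 0 and 10. Of 8 cytokine genes 2 could be compared in each luminal class, and Il6 was lower in secretory-lineage-like cells of CL. Without clusters 0 and 10, Il6 was also lower in hormone-responsive-like cells (1 of 2), against 3.56% of genes.

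The 3 state lists were followed beside these products. Of 10 interferon and MHC class II genes, 8 were higher in CL in secretory-lineage-like cells (129 and 1191 CPM summed over the list), against 2.09% of all genes. In hormone-responsive-like cells 8 were higher (146 and 313 CPM), against 4.05%, and 5 of 9 without clusters 0 and 10, against 2.77%. In basal-like cells all 10 were higher, against 2.19%. None of 10 dissociation stress genes was called in either luminal class. Of 5 milk protein genes compared in secretory-lineage-like cells, Csn1s1 was higher, against 2.09% of all genes, and Csn3 and Lalba were lower, against 3.49%. The whole list stood at 4157 CPM in the library labelled Ctrl, compared with 2617 in CL. In basal-like cells none of 4 listed antimicrobial genes compared was called. Lower in CL there were 2 of 4 pattern receptors (the lipopolysaccharide co-receptors Cd14 and Ly96), 1 of 6 cytokine receptors (Ifngr1) and the 1 milk protein gene compared (Csn3), against 4.62% of all genes. Higher were 1 of 7 transcription factors (the NF-kappaB cofactor Nfkbiz) and 1 of 10 stress genes (Hspa1a), against 2.19%.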

How the data were processed

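The authors deposited whole-number UMI counts per gene and barcode for each library as unfiltered matrices of 32285 genes, without normalization. The submitters' processing notes name Cell Ranger 2.1.1 and mm10, whereas the file headers name Cell Ranger 4. The deposited barcode lists did not index the matrix columns, so as many barcodes as each list held (7217 in Ctrl and 10555 in CL), those with most UMIs, were taken as candidates. Filters on genes (at least 500) and on mitochondrial UMIs (15% or less) left 6297 and 9335 cells, from which Scrublet doublets were removed. Its own threshold in CL (0.674) marked too few cells, so the threshold of Ctrl (0.197) was used in both, which removed 417 (6.62%) and 539 (5.77%) cells.

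Cells were scaled to 10000 UMIs and clustered in scanpy 1.11.5 with the 9 genes left out (2000 variable genes, 30 principal components, 15 neighbours, Leiden resolution 1.0), which gave 24 clusters. A cluster took the class of 16 marker lists with the highest score if at least 3 markers counted, and 1 cluster stayed unnamed. This scoring was set with the data in view and revised once, so that classes with fewer counted markers could not compete. The members and gene lists were chosen with earlier results of these data known. Beyond the 9 genes, the text names for each the 3 genes most like it over clusters and the listed genes past the 1.5-fold rule, at most 4 per list in each luminal class. Ang, Agr2 and the listed genes called in basal-like cells are named beyond this, after their values were seen. Cells rich in a gene were compared with cells without it after seeing the data. Reg3g, Il33, Lalba, Trf, Crip1 and Krt17 were picked from the 5 most different genes in each direction. For Slpi all 5 genes of the higher direction are named. Jchain, Il17ra and Reg3g over the whole class were chosen after seeing their values.

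For each class and library, CPM is the sum of a gene's UMIs relative to the total of that class. Levels carry exact Poisson intervals, shares Clopper-Pearson intervals, and log2 ratios the exact binomial interval of the CL count given both counts. Intervals cover counting error only, and a class with 0 UMIs of a gene is given the upper limit of its exact interval. Before shares were taken, UMIs were drawn at random from every cell down to a fixed depth, set per class at percentile 10 of its cells' UMIs. The ratio intervals and the 1.5-fold rule were run on simulated Poisson counts, the same error that the intervals assume. That run cannot show how they hold where UMIs are uneven over cells or where libraries differ. Alternatives numbered 15, of which 11 bear on the log2 ratios and the others on shares, droplets and likeness, and 4 more were chosen after seeing the data. Software was Python 3.11, scipy 1.17.1, numpy 2.4.6 and edgeR 4.0.16 (TMM factors only).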

Additional observations from a re-analysis of the deposited data

Results flagged for a closer look

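The log2 ratio of CL over Ctrl had opposite signs between epithelial classes for 3 genes, each beyond counting error, and these differences were not tested, since there was 1 library per group. Slpi had a log2 ratio of -0.13 in secretory-lineage-like cells, 0.43 in hormone-responsive-like cells and 0.54 in basal-like cells, of which only the basal-like level lay above the droplets. In hormone-responsive-like cells it turned to -0.28 without clusters 0 and 10 and to -0.15 when CPM were averaged over cells, so the opposite sign there did not hold. Wfdc18 had a log2 ratio of 0.094 in secretory-lineage-like cells and 0.97 in hormone-responsive-like cells but -0.25 in basal-like cells, where its level was 0.180 and 0.114 times that of the droplets and the log2 ratio turned to 0.45 with doublets kept. Muc15 had a log2 ratio of -0.44 in secretory-lineage-like cells and 0.14 in hormone-responsive-like cells, and the latter turned to -0.20 without clusters 0 and 10.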

How the results depend on the processing

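The Defb1 fall in hormone-responsive-like cells and the Pigr rise in secretory-lineage-like cells kept direction and call under 11 alternatives each and under the alternatives chosen after seeing the data that apply to them (3 for Defb1 and 2 for Pigr). Over the 11, Defb1 ran from -2.53 to -2.23 and Pigr from 1.40 to 1.47, and with the same makeup of clusters they were -1.75 and 0.80. With the same makeup of clusters in both libraries, Fcgbp turned to -0.20 in hormone-responsive-like and -0.28 in secretory-lineage-like cells, Muc15 to -0.75 in hormone-responsive-like cells and Wfdc18 to -0.17 in secretory-lineage-like cells. The medians became 0.35 and -0.057, and the counts in hormone-responsive-like cells 2 higher and 2 lower. Without clusters over 90% in 1 library, Muc15 in hormone-responsive-like cells was -0.31, the median 0.54 and the count 3 higher. Without clusters 0 and 10 Slpi was -0.28, Fcgbp -0.083 and Muc15 -0.20 there, the median 0.030 and the count 2 higher. With doublets kept, Muc15 there was -0.075 and the median 0.55, and in basal-like cells Wfdc18 was 0.45 and the count 4 higher. When CPM were averaged over cells, Muc15 (-0.060) and Slpi (-0.15) in hormone-responsive-like cells and Wfdc18 (0.19) in basal-like cells turned, the median was 0.65 and the basal-like count 3 higher. Subtracting free RNA gave a hormone-responsive-like median of 1.06, 0 lower in secretory-lineage-like and 0 higher and 1 lower in basal-like cells. A minimum of 200 UMIs gave medians of 0.68 and 0.23 in the luminal classes and 0 lower in secretory-lineage-like cells. Naming each cell alone gave a secretory-lineage-like median of 0.20 and 2 higher in both secretory-lineage-like and basal-like cells, as did TMM factors for these counts. A mitochondrial limit of 5% gave 2 higher in both and 1 lower in basal-like cells. With thinning to percentile 25 or at least 2 UMIs, differences in shares moved in 11 comparisons of hormone-responsive-like, 7 of secretory-lineage-like and 2 of basal-like cells, and turned for Wfdc18 (-1.77 points) and Muc15 (-0.0013 points) in basal-like cells. Droplets of 50 to 100 UMIs moved the background of all 9 genes. The causes were not tested. No paired analysis was possible because each group has 1 library, and Pigr in hormone-responsive-like cells (21 UMIs in Ctrl) and Defb1 outside them are limited by depth.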

Other observations

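Jchain, the joining chain of the immunoglobulins that Pigr transports, had 3 UMIs in the hormone-responsive-like cells of Ctrl and 591 in those of CL. Of the latter, 304 were in 1 cell and only 2 cells had at least 3, so the difference rests on single cells. In secretory-lineage-like cells, where Pigr was higher in CL, Jchain had 4 and 12 UMIs. Wfdc17, a whey acidic protein domain gene and neighbour by name of Wfdc18, was in macrophage-like cells at 141 CPM in Ctrl and 471 CPM in CL. The Lyz2-high cluster made up 19 of 59 of these cells in Ctrl and 227 of 269 in CL, and within it Wfdc17 was at 293 and 562 CPM, and in the C1qa-high cluster at 98.4 and 162 CPM. Wfdc17 was also at 6.40 and 5.51 CPM in secretory-lineage-like cells. Camp, the cathelicidin of neutrophils and myeloid cells, had 0 UMIs in the macrophage-like cells of Ctrl and 647 in those of CL, 646 of them in the Lyz2-high cluster. Chil1, a chitinase-like secreted protein, was at 354 CPM in Ctrl and 456 CPM in CL in basal-like cells and at 143 and 118 CPM in secretory-lineage-like cells.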
